A study of Mus musculus with 6 samples.

Results

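Expression of the EGF receptor family, its ligands, the hepatocyte growth factor receptor gene *Met* and the receptor antagonist gene *Lrig1* was examined in mouse hepatocytes. The genes were chosen by symbol: the receptors *Egfr*, *Erbb2* and *Erbb3*, the ligands *Tgfa*, *Areg*, *Ereg*, *Hbegf* and *Btc*, and *Met* and *Lrig1*. All 10 symbols were matched to Ensembl identifiers among the 55487 genes in the count tables, and 9 of the 10 had enough reads to be tested. Hepatocytes, the parenchymal cells of the liver, had been isolated from adult mice of 6 to 8 weeks, and RNA was extracted 48 h after isolation. One group carried AEG-1-C75S in the homozygous state and the other was wild type (WT) for AEG-1. Both came from crosses of heterozygotes, and every sample bears the treatment label Control. AEG-1 is the protein encoded by *Mtdh*, and in the mutant the cysteine that carries its palmitoyl group is replaced by a serine. There were 3 libraries per genotype. The labels do not say if each library stands for its own mouse, so p-values measure the spread between these libraries, which may be technical.

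EGF receptor is a tyrosine kinase that binds TGF-alpha, amphiregulin, epiregulin, HB-EGF and betacellulin, all made as membrane-anchored precursors and released by proteases. ERBB2 has no known ligand of its own and ERBB3 has a weak kinase, so both signal chiefly as partners within receptor pairs, with neuregulins as the ligands of ERBB3. In liver, EGF receptor and MET are the main mitogenic receptors of hepatocytes and act in regeneration after partial hepatectomy. LRIG1 is a membrane protein that promotes degradation of these receptors.

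The libraries held 16944723 to 21044292 counts on genes, so that 3 counts corresponded to 0.143 to 0.177 counts per 1000000 gene counts. CPM is that measure with library sizes scaled by TMM, a normalisation between libraries. C75S replicate 1 was the shallowest library and had the highest share of unmapped reads, 5.81% against 4.37% to 4.82% in the other 5. *Mtdh* itself was at 199.8 ± 10.5 CPM in C75S (mean ± SD, n = 3) and at 197 ± 5.18 CPM in WT (n = 3), and the edgeR adjusted p was 0.909. A gene count does not read the mutated codon. The least abundant of 8 hepatocyte markers, *Asgr1*, was at 44.2 CPM or more in every library, *Alb* (albumin) was at 55643 CPM or more, and the summed level of the 8 was 66480 to 79410 CPM in C75S and 74660 to 82400 CPM in WT. Of 8 markers each, 6 of Kupffer cells and macrophages, 6 of stellate cells and 3 of endothelial cells were under 1 CPM in all 6 libraries, and 6 of 8 lymphocyte markers had no count in any library. The Kupffer cell and macrophage list summed to 96.06 to 140.1 CPM, nearly all of it *Cd68* at 94.9 to 138 CPM, with overlap between the genotypes. Endothelial marker sums overlapped, at 31.6 to 42.2 CPM in C75S and at 30.1 to 40.8 CPM in WT, most of it *Stab2*. The median log2 fold change of the 5 endothelial markers tested was 0.685, and -0.003 over all tested genes. Of the 5, 3 had every C75S library above every WT library, as did 9.02% of all tested genes. These were *Pecam1*, at 2.87 to 3.8 CPM in C75S and 1.14 to 2.58 CPM in WT, *Lyve1*, at 2.09 to 2.99 and 1.17 to 1.66 CPM, and *Kdr*, at 0.746 to 1.07 and 0.485 to 0.712 CPM. Their edgeR adjusted p-values were 0.208, 0.131 and 0.521, so these 3 did not pass. *Stab2* and *Cdh5* overlapped between the genotypes. *Stab2* was at 20.5 to 30.2 CPM in C75S and 21.6 to 32.8 CPM in WT (log2 fold change -0.09, edgeR adjusted p = 0.911). *Cdh5* was at 4.32 to 4.71 and 3.01 to 4.51 CPM (log2 fold change 0.34, edgeR adjusted p = 0.505). In a bulk sample, fewer cells of a type and less RNA per cell cannot be told apart.

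The promoter sequences of *Areg* and *Egfr* are shown because the EGF receptor gene had the highest level per length of the 10 genes while *Areg* was the one promoter among them with all 3 motifs searched. RefSeq promoters (GRCm38.p6) were matched for 7 of the 10 genes, and *Erbb3*, *Ereg* and *Hbegf* were not matched. The windows are the 250 bases before the transcription start. Capitals mark TATAAA, the core of the TATA box, GGGCGG, a GC box that reads CCGCCC on the other strand, and TGACGTCA, the cyclic AMP response element, each searched on both strands, and in these windows the marked motifs do not overlap. The *Areg* window lies at chr5:91139349-91139598 on the plus strand and the *Egfr* window at chr11:16751953-16752202 on the plus strand.
Areg: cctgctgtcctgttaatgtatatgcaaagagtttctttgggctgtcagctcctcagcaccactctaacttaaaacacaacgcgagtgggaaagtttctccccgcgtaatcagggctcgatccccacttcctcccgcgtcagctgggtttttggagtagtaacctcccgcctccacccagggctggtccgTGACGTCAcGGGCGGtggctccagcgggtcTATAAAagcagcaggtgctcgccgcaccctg
Egfr: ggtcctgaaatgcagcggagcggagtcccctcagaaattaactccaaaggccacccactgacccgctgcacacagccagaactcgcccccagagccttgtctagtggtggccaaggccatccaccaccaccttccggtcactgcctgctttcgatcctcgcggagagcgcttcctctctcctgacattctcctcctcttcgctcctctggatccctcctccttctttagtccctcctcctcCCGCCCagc

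Within the *Areg* window the cyclic AMP response element, a GC box and the TATA box follow one another toward the start. The *Egfr* window holds a GC box on the other strand and none of the other motifs. Among the 7 matched genes, TATAAA and TGACGTCA were each found in 1 and GGGCGG in 5. Over all 32851 promoters of that length, 12.4% held TATAAA, 32.7% GGGCGG, 1.5% TGACGTCA and 0.033% all 3. The G and C content was 57.2% for *Areg* and 60.8% for *Egfr*, against 59.6% for *Btc*, 66% for *Erbb2*, 69.2% for *Tgfa*, 71.6% for *Lrig1* and 74% for *Met*. The median of all promoters was 52.4%. A match of letters is a description and no evidence that a factor binds there.

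Levels of different genes were compared per length, as RPKM (CPM per 1000 bases of the union of a gene's exons). *Egfr* had the highest level, 43 to 51.4 RPKM over the 6 libraries with a median of 47.5. *Erbb3* followed at 22.7 to 27.7 RPKM, and these ranges do not overlap. *Tgfa*, at 13.4 to 16.5 RPKM, and *Met*, at 14.7 to 16.4 RPKM, did not differ beyond their spread. *Tgfa* was the higher in 5 of 6 libraries, the exception being C75S replicate 1, with 13.4 RPKM for *Tgfa* and 16.4 RPKM for *Met*. *Areg* was at 6.75 to 10 RPKM and *Lrig1* at 5.6 to 6.88 RPKM. Their ranges overlapped slightly, although *Areg* was the higher of the pair in 6 of 6 libraries. *Btc* was at 1.5 to 2.62 RPKM, clear of its neighbours on both sides. *Hbegf*, at 0.534 to 0.986 RPKM, and *Erbb2*, at 0.292 to 0.565 RPKM, overlapped, with *Hbegf* higher in 5 of 6 libraries. *Ereg* came last, at no more than 0.0235 RPKM. With the longest transcript as the length, the order of the 10 genes was the same, but *Tgfa* was then at 19.3 to 23.6 RPKM and *Met* at 16.6 to 18.5 RPKM, so those no longer overlapped.

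**Figure D1:**
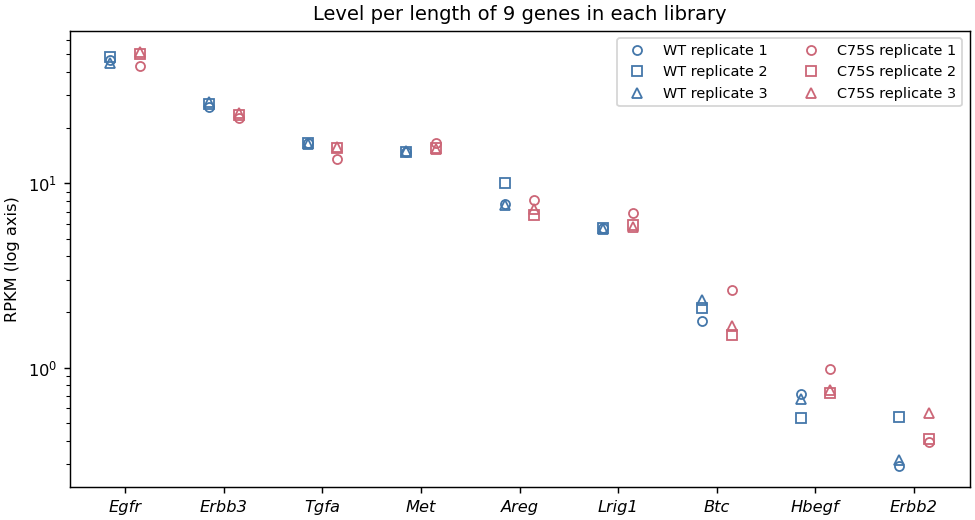
Level per length (RPKM, log axis) of 9 genes in each of 3 WT (blue) and 3 C75S (red) libraries. Points run from *Egfr* at 43 to 51.4 RPKM down to *Erbb2* at 0.292 to 0.565 RPKM, and *Ereg*, with zeros in 3 libraries, is not drawn.

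In the comparison of C75S with WT, *Erbb3* was lower in the mutant and was the single member that passed the test. Among all 12741 tested genes, 396 (3.11%) had an adjusted p under 0.05, 174 (1.37%) were called as lower in C75S and 222 (1.74%) as higher. Among the 9 tested members edgeR called 1 as lower and 0 as higher, DESeq2 likewise, and 0 rose at an unadjusted p under 0.05. The median log2 fold change was 0.046 over the 9 members and -0.003 over all tested genes. In 5 members the genotypes did not overlap, 3 with C75S above WT (*Met*, *Lrig1* and *Hbegf*) and 2 with C75S below WT (*Erbb3* and *Tgfa*). Such a separation was seen in 18.0% of all tested genes, 9.02% with C75S above and 8.96% with C75S below. Unadjusted p-values under 0.05 were found for 2 members, *Erbb3* and *Tgfa*, and for 13.4% of all tested genes. P-values are from edgeR's quasi-likelihood test, adjusted by Benjamini-Hochberg over all tested genes.

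*Egfr* (ENSMUSG00000020122, chromosome 11, 16752203 to 16918158, plus strand, GRCm38) encodes the receptor of the 5 ligands listed. It was at 487, 566 and 582 CPM in C75S replicates 1 to 3 and at 529, 548 and 507 CPM in WT replicates 1 to 3. The genotypes overlapped, with C75S replicate 1 the lowest of all libraries and the other C75S libraries the highest. The means were 545 ± 50.9 CPM in C75S and 528 ± 20.8 CPM in WT (SD, n = 3 each). The log2 fold change was 0.05 (SE 0.06, 95% interval -0.08 to 0.17, edgeR adjusted p = 0.815). The interval spans changes from -5.2% to 12.5%, so with 8481 to 11924 counts per library a larger change in *Egfr* mRNA lies outside it.

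*Erbb3* (ENSMUSG00000018166, chromosome 10, 128567523 to 128589652, minus strand) encodes the neuregulin receptor with the weak kinase. Its values were 136, 140.3 and 144 CPM in C75S and 156, 162 and 167 CPM in WT. Every C75S library lay below every WT library. Means were 140.1 ± 3.58 CPM in the mutant and 162 ± 5.17 CPM in WT (SD, n = 3 each), with 2375 to 3434 counts per library. Expressed as log2, the difference was -0.21 (SE 0.05, 95% interval -0.31 to -0.11), and the level fell by 13.4%. The edgeR adjusted p was 0.0176. The call was lost without C75S replicate 1 (adjusted p = 0.0804), C75S replicate 2 (0.0558), WT replicate 2 (0.0875) or WT replicate 3 (0.086), while the log2 fold change stayed between -0.23 and -0.19 in the 6 fits that left out a library.

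*Erbb2* (ENSMUSG00000062312, chromosome 11, 98412470 to 98437716, plus strand), the receptor without a ligand of its own, was near the low end of what could be tested. It was at 2.07, 2.13 and 2.94 CPM in C75S and at 1.52, 2.83 and 1.65 CPM in WT, on 32 to 58 counts per library. WT replicate 2 lay among the C75S libraries. On the log2 scale the difference was 0.25 (SE 0.28, 95% interval -0.33 to 0.83, edgeR adjusted p = 0.769), and without WT replicate 2 it was 0.59.

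Summed per length, *Egfr* made up 65.1%, 67.8% and 67.8% of the RPKM of the 3 receptors in C75S and 64%, 63.8% and 61.5% in WT. *Erbb3* made up 34.3%, 31.7% and 31.5% in C75S and 35.6%, 35.5% and 38.1% in WT. For both receptors the shares of the genotypes did not overlap, which restates the lower *Erbb3* level and is no separate test. *Erbb2* held 0.4% to 0.74% of the sum in all libraries. *Egfr* exceeded *Erbb2* by 89.2 to 160.1 times per length.

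**Figure D2:**
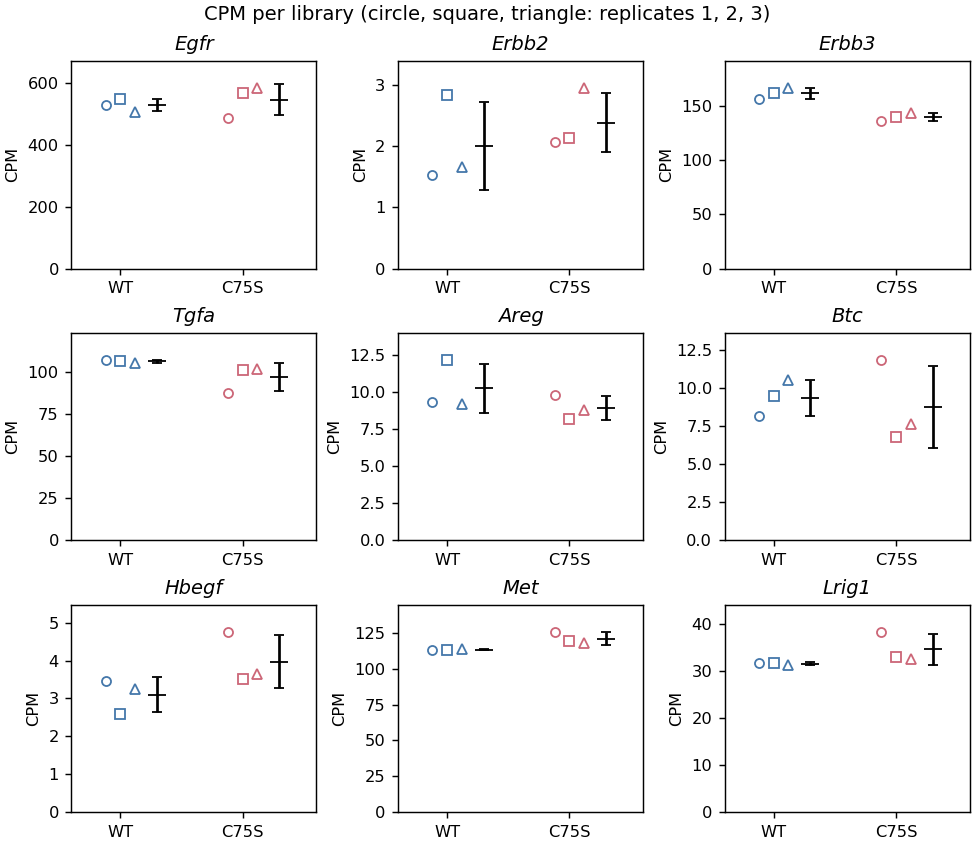
CPM of the 9 tested genes in each library, WT in blue and C75S in red, with mean ± SD in black (n = 3 each) and axes starting at 0. The *Erbb3* points of C75S, at 136 to 144 CPM, all lie below those of WT, at 156 to 167 CPM. C75S replicate 1 (circle) is the lowest point for *Egfr* and *Tgfa* and the highest for *Btc*, *Hbegf*, *Met* and *Lrig1*.

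Of the ligands, *Tgfa* (ENSMUSG00000029999, chromosome 6, 86195223 to 86275719, plus strand) was the most abundant per length, with 53.5% to 63.4% of the summed RPKM of the 5 ligand genes in each library. It encodes TGF-alpha, a ligand that hepatocytes make themselves. It was at 87.2, 101 and 102 CPM in C75S and at 107, 106 and 105 CPM in WT. All C75S libraries lay below all WT libraries, with C75S replicate 1 farthest away. The means were 96.7 ± 8.30 and 106 ± 0.99 CPM (SD, n = 3 each) and the log2 fold change was -0.13 (SE 0.06, 95% interval -0.25 to -0.02), but the edgeR adjusted p was 0.281, so *Tgfa* did not pass. Without C75S replicate 1 the log2 fold change was -0.07.

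*Areg*, *Ereg* and *Btc* lie next to one another on chromosome 5. *Ereg* (ENSMUSG00000029377, 91074622 to 91093646, plus strand) is followed after 46 kb by *Areg* (ENSMUSG00000029378, 91139599 to 91148432, plus strand) and after a further 208.8 kb by *Btc* (ENSMUSG00000082361, 91357261 to 91402994, minus strand). Those 3 were the protein-coding genes of the interval of 328.4 kb. Another EGF family ligand gene, *Epgn* (epigen), lies on the far side of *Ereg* and had 1 count over the C75S libraries and 5 over the WT libraries. *Ereg* had 1 count over the C75S libraries and 3 over the WT libraries, too few for the filter on low counts (minimum total 15). It was not tested, and no fold change is given. The levels of neighbouring ligand genes therefore ranged from near 0 to 6.75 to 10 RPKM for *Areg*.

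*Areg* encodes amphiregulin, a ligand made by stressed and regenerating epithelia. It was at 9.82, 8.21 and 8.77 CPM in C75S and at 9.35, 12.2 and 9.22 CPM in WT. The genotypes overlapped, and WT replicate 2 was the highest library. A log2 fold change of -0.20 was estimated (SE 0.14, 95% interval -0.48 to 0.08, edgeR adjusted p = 0.565), and it was -0.06 without WT replicate 2. *Btc* encodes betacellulin, which also binds ERBB4, and was at 11.8, 6.78 and 7.60 CPM in C75S and at 8.12, 9.45 and 10.5 CPM in WT. C75S replicate 1 had the highest value of all and the other C75S libraries the lowest. The log2 fold change was -0.11 (SE 0.17, 95% interval -0.47 to 0.26, edgeR adjusted p = 0.855). Leaving out C75S replicate 1 gave -0.38 and leaving out C75S replicate 2 gave 0.05, so no direction could be given.

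*Hbegf* (ENSMUSG00000024486), the gene of heparin-binding EGF-like growth factor, was at 4.77, 3.51 and 3.64 CPM in C75S and at 3.47, 2.58 and 3.25 CPM in WT. All C75S libraries lay above all WT libraries, by a small margin between C75S replicate 2 and WT replicate 1. With 53 to 83 counts per library, the log2 fold change was 0.35 (SE 0.21, 95% interval -0.08 to 0.78, edgeR adjusted p = 0.51), the largest point estimate among the 9 members and not past the threshold. It was 0.20 without C75S replicate 1.

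*Met* (ENSMUSG00000009376, chromosome 6, 17463800 to 17573980, plus strand), the receptor of hepatocyte growth factor, was at 126, 119 and 118 CPM in C75S and at 113, 113 and 114 CPM in WT. All C75S libraries lay above all WT libraries. *Met* had a log2 fold change of 0.09 (SE 0.05, 95% interval -0.01 to 0.20, edgeR adjusted p = 0.434). The call was not reached in any of the 15 alternative fits, and a change above 14.7% lies outside the interval.

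*Lrig1* (ENSMUSG00000030029, chromosome 6, 94604529 to 94700158, minus strand), the antagonist of these receptors, was at 38.4, 32.9 and 32.5 CPM in C75S and at 31.8, 31.7 and 31.3 CPM in WT. The genotypes did not overlap, but C75S replicates 2 and 3 were close to the WT libraries. The log2 fold change was 0.13 (SE 0.08, 95% interval -0.03 to 0.29, edgeR adjusted p = 0.507), and it was 0.05 without C75S replicate 1.

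**Figure D3:**
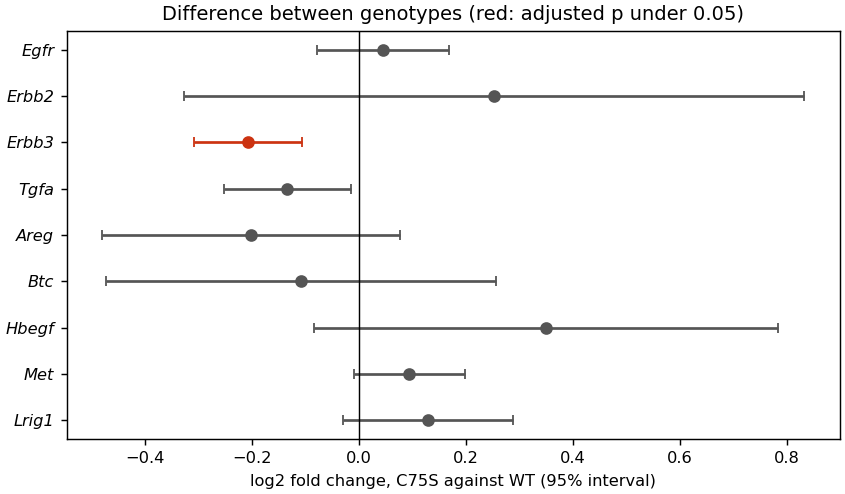
Log2 fold change of C75S against WT for the 9 tested genes, with 95% intervals from edgeR's quasi-likelihood fit (3 libraries per genotype). *Erbb3*, in red at -0.21, is the gene with an adjusted p under 0.05, and the intervals of *Erbb2* and *Hbegf*, the genes with the fewest counts, are the widest.

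C75S replicate 1 was at an end of the range for several of these genes. It was the lowest library for *Egfr*, *Erbb3* and *Tgfa* and the highest for *Met*, *Lrig1*, *Hbegf* and *Btc*. For *Erbb3* it was close to C75S replicate 2, at 136 and 140.3 CPM. How often this library was the lowest or highest over all tested genes was not counted. The 8 cholangiocyte markers summed to 234.8, 208 and 180.6 CPM in C75S replicates 1 to 3 and to 160.9, 168.8 and 164.4 CPM in WT. Of that list *Krt19* was called higher in C75S, at 9.52 ± 1.22 against 5.47 ± 0.26 CPM (SD, n = 3 each, edgeR adjusted p = 0.00151). *Spp1* was at 157, 133 and 105 CPM in C75S and 83.9, 96.5 and 92.5 CPM in WT, while *Cftr* had no count in any library and *Epcam* stayed under 1 CPM. The part of these markers, and of the endothelial markers higher in each C75S library, in the values of *Erbb3*, *Met*, *Lrig1* and *Hbegf* was not tested.

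**Figure D4:**
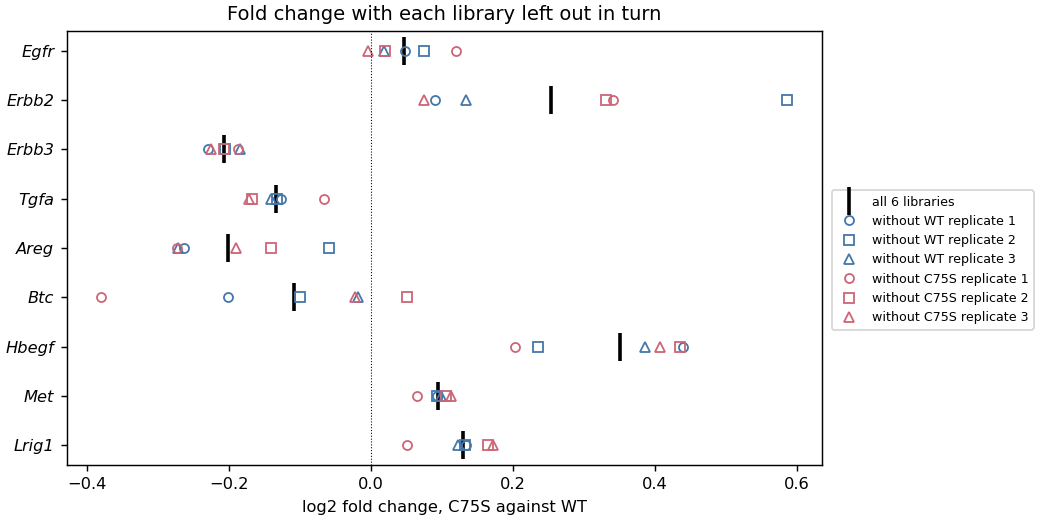
Log2 fold change of C75S against WT for the 9 tested genes with all 6 libraries (black bar) and with each library left out in turn (open symbols, coloured by the genotype of the library left out). *Erbb3* stays between -0.23 and -0.19, whereas *Erbb2* runs from 0.075 to 0.586 and *Btc* from -0.38 to 0.051.

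The genes whose log2 CPM followed *Erbb3* most closely over the 6 libraries were *Ell2* (Pearson r = 0.998), *Rapgef2* (0.994), *Plcl1* (0.993), *Agbl5* (0.989) and *Scyl2* (0.989). These were picked as the highest of all tested genes, over 6 libraries that share the split by genotype, and are a description only. Among the other tested members the coefficient with *Erbb3* was 0.762 for *Tgfa*, 0.458 for *Areg*, 0.187 for *Btc*, -0.1 for *Egfr*, -0.268 for *Erbb2*, -0.754 for *Lrig1*, -0.773 for *Hbegf* and -0.886 for *Met*.

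Around the members, 5 lists with 85 genes of the pathway were examined, of which 75 could be tested. Of these 75, 3 rose and 1 fell, and the median log2 fold change was -0.001. The share called in either direction was 3.11% over all tested genes. The 4 called genes among the 75 were *Plaur*, *Ccnd1* and *Phlda1*, which rose, and *Egr1*, which fell.

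Among 10 other ligand and receptor genes of the EGF and HGF families, 4 could be tested and 0 were called, beside 3.11% of all tested genes. At an unadjusted p under 0.05 there was 1, *Nrg4*, beside 13.4% of all tested genes, and 0 were called by DESeq2. *Nrg4* encodes neuregulin-4, a ligand of ERBB4. It was at 124, 122 and 135 CPM in C75S and at 109, 113 and 121 CPM in WT, without overlap, and the difference of 0.16 on the log2 scale (SE 0.05) missed the threshold (edgeR adjusted p = 0.148). *Mst1*, the gene of macrophage-stimulating protein, an HGF relative secreted by hepatocytes, was at 68.4 ± 1.88 RPKM in C75S and 70.9 ± 0.84 RPKM in WT (SD, n = 3 each). *Nrg1*, which encodes a ligand of ERBB3, was at 50.4 ± 5.69 CPM in C75S and at 52.9 ± 2.87 CPM in WT (edgeR adjusted p = 0.762). The remaining receptor and ligand genes were at or near 0: *Erbb4* had at most 5 counts in a library, *Hgf* at most 6, and *Nrg3* none in any library. *Egf* was at 0.89 ± 0.31 CPM in C75S and at 0.92 ± 0.18 CPM in WT. *Nrg1*, *Erbb4*, *Hgf*, *Nrg3* and *Egf* are named outside the naming rule, after their values were seen.

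Of 15 genes for the processing of ligands and receptors, 13 were tested, 1 rose and 0 fell, beside 3.11% called over all tested genes. In this list 5 had an unadjusted p under 0.05, beside 13.4% of all tested genes, and the median log2 fold change was 0.039. *Plaur*, the urokinase receptor, which localises a protease that can activate pro-HGF, was at 59.8, 57.9 and 58.6 CPM in C75S and at 41.3, 41.3 and 36.8 CPM in WT. The genotypes stood well apart, and the gene rose by 0.56 on the log2 scale (SE 0.06, edgeR adjusted p = 4.46e-06). The call held in each of the 15 alternative fits, with an adjusted p of at most 7.73e-05. *Plau*, the gene of urokinase itself, is named after its values were seen. It had 5, 1 and 5 counts in C75S and 0 in each WT library, too few to be tested. *Furin*, a proprotein convertase, was at 48 ± 1.73 RPKM in C75S and 54.1 ± 2.52 RPKM in WT, and its log2 change was -0.17 (edgeR adjusted p = 0.0691). *Hgfac*, the HGF activator, was at 48.5 ± 2.28 and 45.4 ± 3.09 RPKM (SD, n = 3 each, edgeR adjusted p = 0.481). *Adam17*, the main sheddase of TGF-alpha and amphiregulin, is named after its values were seen. It was at 40.5, 37.8 and 41.7 CPM in C75S and at 37, 40.4 and 39.4 CPM in WT, with overlap (edgeR adjusted p = 0.876).

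All 23 adaptors and kinases of the pathway were tested and 0 were called by edgeR or DESeq2, with 2 at an unadjusted p under 0.05 and a median log2 fold change of -0.011. Those 2 were *Akt1*, a kinase of the PI3-kinase arm, and *Map2k2*, a kinase that activates ERK. *Akt1* was at 158, 166 and 153 CPM in C75S and at 142, 141 and 145 CPM in WT, a difference of 0.15 on the log2 scale (SE 0.05, edgeR adjusted p = 0.101). *Map2k2* was at 106, 109 and 104 CPM in C75S and at 96.5, 98.1 and 94.3 CPM in WT (log2 fold change 0.14, edgeR adjusted p = 0.156). Both were separated between genotypes, as were 18.0% of all tested genes, and did not pass the test. *Mapk3*, which encodes an ERK kinase, and *Ptpn11*, which encodes the phosphatase SHP2, had the highest levels of the list, at 54.6 ± 2.25 and 44.1 ± 1.40 RPKM in C75S and 54 ± 1.86 and 43.8 ± 0.83 RPKM in WT.

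Of 17 genes that attenuate the receptors, 17 were tested and 0 were called by edgeR or DESeq2, with a median log2 fold change of -0.026. Of all tested genes, 3.11% were called by edgeR. There were 2 attenuator genes at an unadjusted p under 0.05, beside 13.4% of all tested genes. *Errfi1*, a feedback inhibitor that binds the EGF receptor kinase, was at 466 ± 18.6 RPKM in C75S and 477 ± 4.92 RPKM in WT (SD, n = 3 each, edgeR adjusted p = 0.855), the highest level of all the pathway genes examined. *Cblb*, a ubiquitin ligase of activated receptors, was at 74.8, 84.9 and 78.6 CPM in C75S and at 90.1, 94.4 and 89.2 CPM in WT. Its genotypes did not overlap, and the difference of -0.20 on the log2 scale (SE 0.06) was just short of the threshold (edgeR adjusted p = 0.0544). It passed without C75S replicate 2 (0.0276), with the replicate number as a block (0.0389) and without the filter on low counts (0.026). *Ptprj*, a receptor phosphatase, was at 167, 167 and 179 CPM in C75S and at 179, 192 and 187 CPM in WT (edgeR adjusted p = 0.251). *Hgs*, which sorts receptors at endosomes, was at 47.2 ± 1.27 and 49.1 ± 1.63 RPKM (edgeR adjusted p = 0.695).

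Of 20 genes of ERK feedback and ERK-responsive transcription, 18 were tested, of which 2 rose, 1 fell and 15 did not pass. Over all tested genes, 3.11% were called. In the list, 5 had an unadjusted p under 0.05, beside 13.4% of all tested genes, and the median log2 fold change was 0.087. *Ccnd1*, the gene of cyclin D1, was at 9.65, 9.87 and 7.81 CPM in C75S and at 3.47, 4.68 and 5.0 CPM in WT (log2 fold change 1.06, SE 0.16, edgeR adjusted p = 0.000228). *Egr1*, an immediate early transcription factor, was at 38, 38.8 and 32.4 CPM in C75S and at 52.6, 52.1 and 44.5 CPM in WT. It fell by 0.45 on the log2 scale (SE 0.08, edgeR adjusted p = 0.000984). Each of these calls held in all 15 alternative fits, *Ccnd1* with a rise and *Egr1* with a fall. *Phlda1*, a pleckstrin-homology protein gene induced by growth factors, was at 52.7, 49.6 and 44.0 CPM in C75S and at 42.6, 39.2 and 38.5 CPM in WT (log2 fold change 0.28, SE 0.07, edgeR adjusted p = 0.0287). That call was lost in 5 of 15 alternative fits, with adjusted p-values up to 0.198 without C75S replicate 1. *Myc*, a growth-promoting transcription factor gene, was at 65 ± 1.68 RPKM in C75S and 63.7 ± 5.72 RPKM in WT (edgeR adjusted p = 0.894). *Ier3*, an immediate early gene, was at 20.6 ± 1.75 and 19.99 ± 1.80 RPKM (SD, n = 3 each, edgeR adjusted p = 0.896). *Dusp6*, the ERK phosphatase often used as a readout of ERK activity, is named after its values were seen, and was at 34.7, 32.9 and 32.4 CPM in C75S and 29.96, 34.4 and 32.8 CPM in WT (edgeR adjusted p = 0.875).

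**Figure D5:**
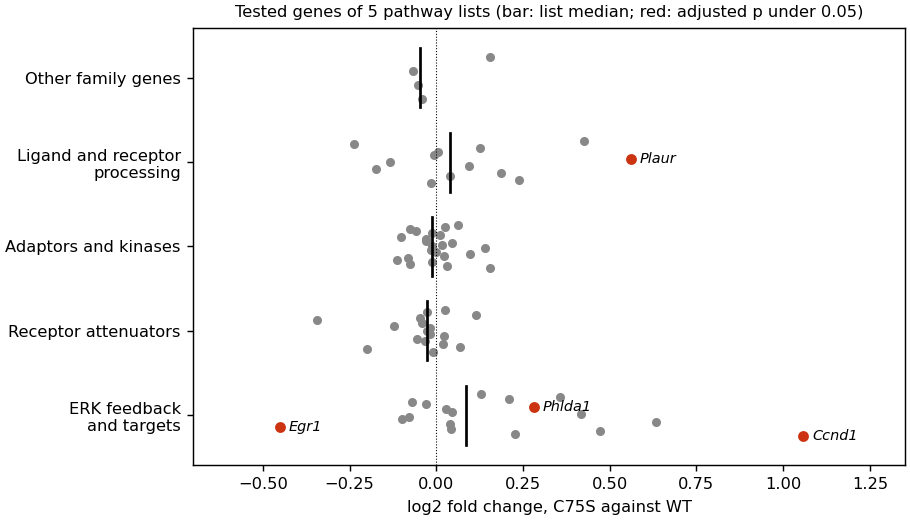
Log2 fold change of C75S against WT for the 75 tested genes of 5 pathway lists, 1 point per gene, with the list median as a bar and genes with an adjusted p under 0.05 in red. *Plaur*, *Phlda1* and *Ccnd1* lie to the right and *Egr1* to the left, and the list medians lie between -0.047 and 0.087.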

How the data were processed

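RNA-seq counts of 6 hepatocyte libraries were analysed, 3 C75S and 3 WT, grouped by sample title. The deposited files hold raw counts in the STAR layout, 1 row per Ensembl gene. The submitters' processing notes name Trim Galore 0.6.6, STAR 2.7.9a, edgeR 3.36.0 and the build mm10 (GRCm38). The annotation release is not given in the sources used here. Multimapping reads (17.98% to 18.54%) were not counted to genes.

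The reverse-strand column was used, with 32.87 to 33.93 times the counts of the forward column. The 4 summary rows, 28.8% to 30.2% of reads, were dropped. Of 55487 gene rows, 55141 matched GENCODE M21, the source of symbols, positions and exon lengths. Genes were filtered with filterByExpr (minimum count 10, minimum total 15) and scaled by TMM. Genotype was the only term of a robust two-sided quasi-likelihood F-test in edgeR 4.0.16 under R 4.3.3. Benjamini-Hochberg adjustment ran over all tested genes, and calls needed an adjusted p under 0.05. Intervals of 95% use that fit's standard error and degrees of freedom and cover the spread between libraries. Pearson coefficients used log2 CPM with a prior count of 2. The procedure was run on simulated counts, and the share of changed genes that it called is not given here. Replicates differed by more than counting noise (chi-square per degree of freedom 4.05 to 8.99).

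The members and lists were chosen with earlier results of these data known. Named by rule were all members, *Mtdh*, from each list the called genes or, with none, the 2 of smallest p, the 2 of highest mean RPKM, and the 5 genes closest to a called member. Alternatives were DESeq2 1.42.0, limma-voom (limma 3.58.1), scaling by RLE, by upper quartile or by library size, 2 other filters, unstranded counting, a replicate block and leaving out each library.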

Additional observations from a re-analysis of the deposited data

How the results depend on the processing

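*Erbb3* kept its direction in all 15 alternative fits and its call in the 9 that used all libraries, with a highest adjusted p of 0.0207 with library-size scaling. Leaving out a library gave log2 fold changes from -0.229 to -0.185, with the call kept in 2 of 6 fits. None of the other 8 tested members passed the threshold in any alternative. With a library left out, *Egfr* ranged from -0.004 to 0.12, *Btc* from -0.38 to 0.051, *Ptpn11* from -0.016 to 0.025, *Mapk3* from -0.015 to 0.043, *Myc* from -0.038 to 0.092 and *Ier3* from -0.022 to 0.122, so these changed direction, and the cause was not tested. The count of 396 called genes ranged from 201 (without WT replicate 2) to 355 with a library left out. It was 246 without WT replicate 3 and 253 without C75S replicate 1, and 381 to 573 in the fits that kept all libraries. With no filter beyond 1 count, 8 pathway genes were called instead of 4, and the cause was not tested. *Furin* passed with DESeq2 (adjusted p = 0.033), without that filter (0.0247) and without WT replicate 1 (0.0396). With the replicate number as a replicate block, 480 genes were called and *Erbb3* had an adjusted p of 0.013 and a log2 fold change of -0.207. Same-numbered libraries did not deviate together (correlations 0.017, -0.04 and 0.025), and not every library correlated best with its own number. Deviations from means of 3 libraries cannot show whether the number pairs them, and no label says what it marks. The order of levels was the same with library-size scaling and with the longest transcript as length. Of the tested members, *Erbb2* and *Hbegf* had the fewest counts and the widest intervals.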

Other observations

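Reads on the opposite strand of these genes were not used in any comparison. Over the 6 libraries the forward-strand column held 38 counts at *Lrig1*, 0.96% of its reads on both strands, and 41 at *Egfr*, 0.06%. *Lrig1* overlaps *Slc25a26* and *Egfr* overlaps *Egfros* on the other strand. *Areg*, *Btc*, *Ereg* and *Hbegf* had 0 such counts. On its own strand *Erbb3* overlaps the microRNA gene *Mir6917*. At *Lrig1* the libraries held 4, 5 and 4 forward-strand counts in C75S and 10, 11 and 4 in WT.

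*Hgf*, which encodes the ligand of MET and is in liver a product of stellate cells, had 5, 6 and 4 counts in C75S and 3, 1 and 1 in WT. These are too few for the filter, and no fold change is given. The stellate cell markers summed to 63, 52.9 and 69.1 CPM in C75S and to 68.3, 90.8 and 74.9 CPM in WT, most of it *Reln*, and *Des* was under 1 CPM in every library.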
